A study of Mus musculus with 4 samples.

Results

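The genes described here encode the ADAMTS proteases, the matrix metalloproteinases (MMPs) and the tissue inhibitors of metalloproteinases (TIMPs) of the mouse. They were chosen by gene symbol alone, as every numbered Adamts or Mmp gene and *Timp1* to *Timp4* in the deposited gene list, with a single MMP gene left out by the rule. The rule gave 44 of 32285 genes, 19 of them ADAMTS genes, 21 MMP genes and 4 TIMP genes. Their RNA was followed across the cell types of the E16.5 mouse penis, and between penises with and without ablation of the cells that descend from *Nr5a1*-expressing cells. The penis is forming its urethral tube and prepuce at that stage.

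Single-cell mRNA was measured in 4 libraries of male genitalia, 2 for each genotype. The control penises, titled DTA- and labelled WT, carried the floxed diphtheria toxin allele (DTA f/+) without *Nr5a1*-Cre. The ablated penises, DTA+, carried the same allele together with *Nr5a1*-Cre, which directs the toxin to cells with a history of *Nr5a1* expression. The study's methods state that *Nr5a1*-Cre also acts in the adrenals and the testes, which make the androgens the penis responds to. Loss of the penile cells, of testis hormone and of adrenal hormone therefore cannot be told apart in these libraries. The crosses also gave ablated embryos a *tdTomato* reporter allele, whose UMIs were counted in DTA+ libraries and not in DTA- libraries.

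MMPs are zinc-dependent enzymes that cut collagens, proteoglycans and other matrix proteins, either after secretion or, in the membrane-type enzymes, at the cell surface. ADAMTS proteases are secreted enzymes with thrombospondin repeats. Some cut large proteoglycans such as versican and aggrecan, others trim the amino-terminal propeptides of fibrillar procollagens, and others act on or bind fibrillin microfibrils. TIMPs bind the active sites of these enzymes and block them. In embryonic organs the balance of the 3 families governs how a matrix is laid down, cleared and crossed by moving cells.

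The libraries held 50779551 to 73577028 UMIs, where a UMI counts 1 captured mRNA molecule, and 6573 to 8810 cells each passed the filters. The median kept cell had 3551 to 4700 UMIs. Any pair of libraries shared 31 to 48 cell barcodes. *Nr5a1* itself had 1 or 2 UMIs in each library and so could not check the ablation. *tdTomato* had 0 UMIs in both DTA- libraries and 3579 and 3140 in DTA+ 1 and DTA+ 2. *Fkbp5*, a gene that androgen and glucocorticoid receptors activate, had 4358 and 3554 UMIs in the DTA- libraries against 626 and 686 in the DTA+ libraries. Library DTA- 1 stood apart on immediate-early genes, which are switched on within minutes of stress or growth signals. Levels are given as CPM, the share of a library's UMIs that a gene holds, scaled to a total of 1000000. The summed level of 8 such genes was 6190 CPM in DTA- 1 and between 10819 and 13393 CPM in the other 3 libraries.

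Across the 31132 kept cells, 18 of the 44 genes had over 1000 UMIs, 12 had 51 to 1000, 11 had 1 to 50 and 3 had 0. These sums give the abundance of each mRNA without correction for length, since the kit reads only the 3′ end of a molecule. Of 170217 UMIs from the 44 genes, 66.4% came from 4 of them. *Timp2*, an inhibitor that also takes part in the activation of proMMP2, had 34273. *Mmp14*, the membrane-type enzyme that activates proMMP2, had 28769, and *Mmp2*, the gelatinase, had 28425. *Timp3*, the inhibitor that stays bound to the matrix and blocks several ADAMTS enzymes, had 21510.

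**Figure D1:**
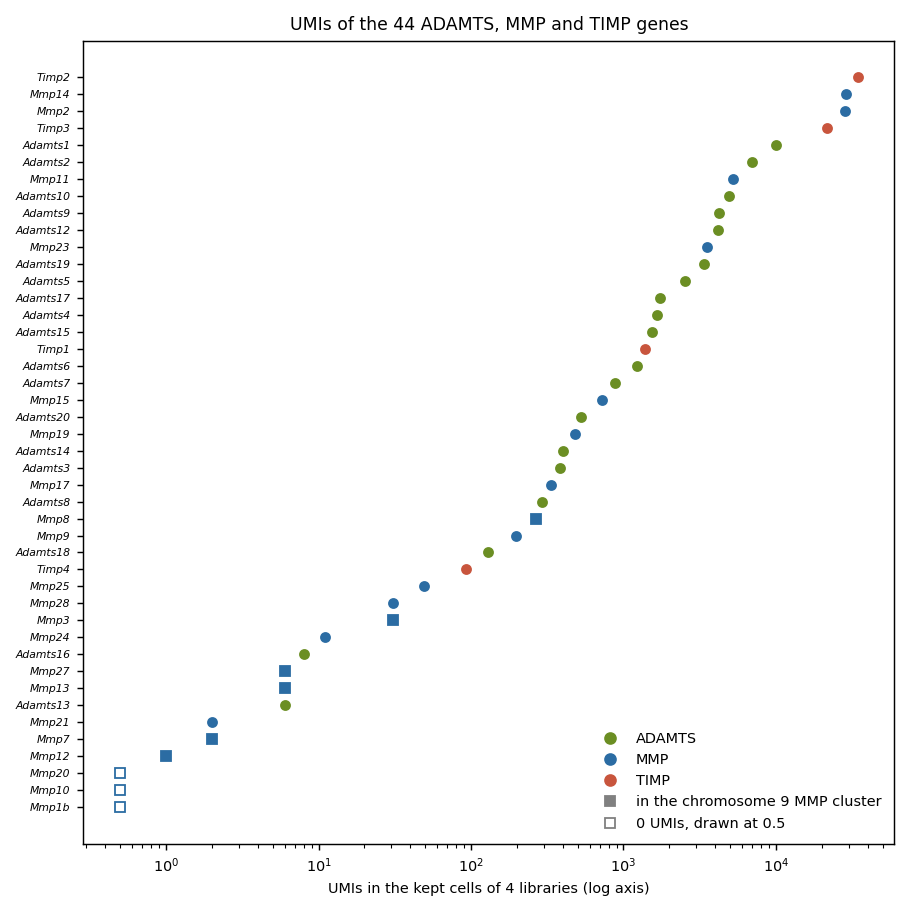
UMIs of each of the 44 genes in the kept cells of all 4 libraries, on a log axis, in order of abundance and coloured by family, with squares for the chromosome 9 cluster and open squares for genes at 0. Timp2, Mmp14, Mmp2 and Timp3 lead with 21510 to 34273 UMIs, and 14 genes have 50 UMIs or fewer.

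Of the 14 genes with 50 UMIs or fewer, 8 lay in a single gene cluster and 6 elsewhere. Of the 44 genes, 9 lie side by side on chromosome 9 (GRCm38, 7272514 to 7699585), among them the collagenases *Mmp1b*, *Mmp8* and *Mmp13*, the stromelysins *Mmp3* and *Mmp10*, matrilysin (*Mmp7*) and macrophage elastase (*Mmp12*). These genes of the cluster were singled out after their values were seen. In kept cells *Mmp1b*, *Mmp10* and *Mmp20* had 0 UMIs, *Mmp12* had 1, *Mmp7* had 2, *Mmp13* and *Mmp27* had 6 each, and *Mmp3* had 31. *Mmp8*, the neutrophil collagenase, had 268 and was the only cluster gene above 50. Outside the cluster *Mmp21* had 2, *Adamts13* 6, *Adamts16* 8, *Mmp24* 11, *Mmp28* 31 and *Mmp25* 49. Without *Mmp8*, the other 8 genes of the chromosome 9 cluster shared 46 UMIs in kept cells and 112 in all 47040 deposited cells.

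The promoters of 6 cluster genes are shown beside those of 3 abundant members, picked because their letters differ. Only cluster genes with the AP-1 letters marked below are printed, which leaves out *Mmp8*, *Mmp20* and *Mmp27*. The 3 abundant members all hold a GC box. Sequences come from RefSeq on GRCm38.p6 and run 5′ to 3′ on the strand of the gene, with 100 bases ending just before the transcription start for each. Capitals mark the letters TGAGTCA or its reverse complement (the AP-1 site), TATAAA or its reverse complement (a TATA box) and GGGCGG or its reverse complement (a GC box).
Mmp3 (chr9:7445722-7445821, plus strand): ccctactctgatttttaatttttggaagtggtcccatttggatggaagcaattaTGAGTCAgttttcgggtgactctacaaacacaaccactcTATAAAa
Mmp7 (chr9:7691990-7692089, plus strand): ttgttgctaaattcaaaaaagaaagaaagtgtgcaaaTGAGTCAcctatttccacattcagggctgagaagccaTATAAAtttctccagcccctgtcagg
Mmp10 (chr9:7502242-7502341, plus strand): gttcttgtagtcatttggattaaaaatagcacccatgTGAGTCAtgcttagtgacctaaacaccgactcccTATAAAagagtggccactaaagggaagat
Mmp12 (chr9:7347274-7347373, plus strand): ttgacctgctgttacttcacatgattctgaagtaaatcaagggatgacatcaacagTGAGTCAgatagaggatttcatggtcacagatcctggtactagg
Mmp13 (chr9:7272414-7272513, plus strand): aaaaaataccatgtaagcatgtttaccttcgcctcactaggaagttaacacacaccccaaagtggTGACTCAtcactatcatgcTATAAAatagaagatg
Mmp1b (chr9:7388027-7388126, minus strand): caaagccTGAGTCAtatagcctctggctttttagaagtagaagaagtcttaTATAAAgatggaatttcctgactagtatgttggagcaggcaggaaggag
Mmp14 (chr14:54431498-54431597, plus strand): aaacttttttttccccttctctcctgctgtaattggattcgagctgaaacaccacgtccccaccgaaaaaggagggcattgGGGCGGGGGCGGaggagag
Timp1 (chrX:20870066-20870165, plus strand): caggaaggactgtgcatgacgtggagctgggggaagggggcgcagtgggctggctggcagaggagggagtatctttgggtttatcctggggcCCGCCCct
Mmp11 (chr10:75932503-75932602, minus strand): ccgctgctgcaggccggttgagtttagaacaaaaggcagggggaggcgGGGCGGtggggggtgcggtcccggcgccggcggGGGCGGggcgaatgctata
Promoter entries were found for 31 of the 44 genes, and the 250 bases before each start were searched on both strands. The AP-1 letters TGAGTCA were present for 6 members, which were *Mmp1b*, *Mmp3*, *Mmp7*, *Mmp10*, *Mmp12* and *Mmp13*, all in the chromosome 9 cluster. Over 32851 windows of all genes, 4.46% held them. TATAAA was present for 6 of the 9 cluster genes and for 1 of 11 members with over 1000 UMIs, against 12.4% of all windows. GGGCGG was present for 0 of the 9 cluster genes and for 8 of those 11 members, against 32.7% of all windows. The androgen and glucocorticoid receptor palindrome was found for 0 members and in 0.00913% of windows. Neighbouring genes of the cluster share ancestry, so their promoters are not independent examples, and a match of letters is no evidence that a factor was bound in these cells.

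Cells were grouped into 26 clusters without use of the 44 genes, and 18 clusters were named from marker genes to give 14 populations. A further 8 clusters, holding 12709 cells, met no name and are called by their leading genes. The labelled tissue was checked by its markers, which gave epithelium with *Krt5*, *Krt14* and *Trp63*, corpus cavernosum with *Sox9* and *Col2a1*, distal glans with *Msx1* and *Msx2*, and periurethra with *Foxf1* and *Foxf2*. General prepuce rested on *Twist2*, *Crabp1* and *Tbx18* but was led by *Irx1*, *Col7a1* and *Icam1*. No cluster met the markers of subdermal prepuce. The red blood cell cluster had a *Pdgfra* UMI in 26.6% of its cells and *Mmp2* at 170.2 ± 18.8 CPM. Its levels and tests of mesenchymal genes are therefore not read as those of red blood cells alone. Levels below are CPM in the summed counts of a population, as mean ± SD over all 4 libraries, so that the SD holds the genotype difference as well. Mixtures of cells within a cluster and the RNA of a single cell cannot be told apart in such sums.

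In the 19 populations with at least 20 cells in every library, 22 members reached a mean of 20 CPM in a named population. *Timp2* reached it in all 19 populations, *Mmp14* and *Timp3* in 18, and *Mmp2* in 17. The other members reached it in fewer, and 10 members reached that level in at least 10 populations. RNA of other cells in the droplets can add to such levels, so these genes were set beside collagen genes that macrophages should lack, in a comparison made after the values were seen. In macrophages *Col1a1* stood at 2.57% to 5.58% of its level in the mesenchyme of the same library and *Col3a1* at 2.85% to 3.80%. *Mmp2* at 3.23% to 8.20%, *Timp3* at 2.02% to 7.27% and *Mmp14* at 4.81% to 10.95% lay in or near that range, with 8 to 22 UMIs each, and are not read as expression there. *Timp2* stood at 31.1% to 47.4% with 131 UMIs, above the collagens in every library. In the red blood cell cluster *Col1a1* was at 43.1% to 68.6%, in the range of *Timp2* at 53.6% to 65.1%. In the mast cell cluster *Mmp14* was at 3.62% to 25.6% and *Timp3* at 4.31% to 27.3%, with 25 and 23 UMIs. *Col1a1* there was at 3.56% to 11.7% and *Pdgfra* at 3.35% to 30.9%. In epithelium *Mmp2* was at 9.57% to 13.2%, *Col1a1* at 4.51% to 14.6% and *Mmp14* higher, at 17.5% to 35.0%. The counts of 17 and 18 populations thus include levels near those of carried-over RNA. Since a population is drawn from the same cells, the differences between sites are described here and were not tested.

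**Figure D2:**
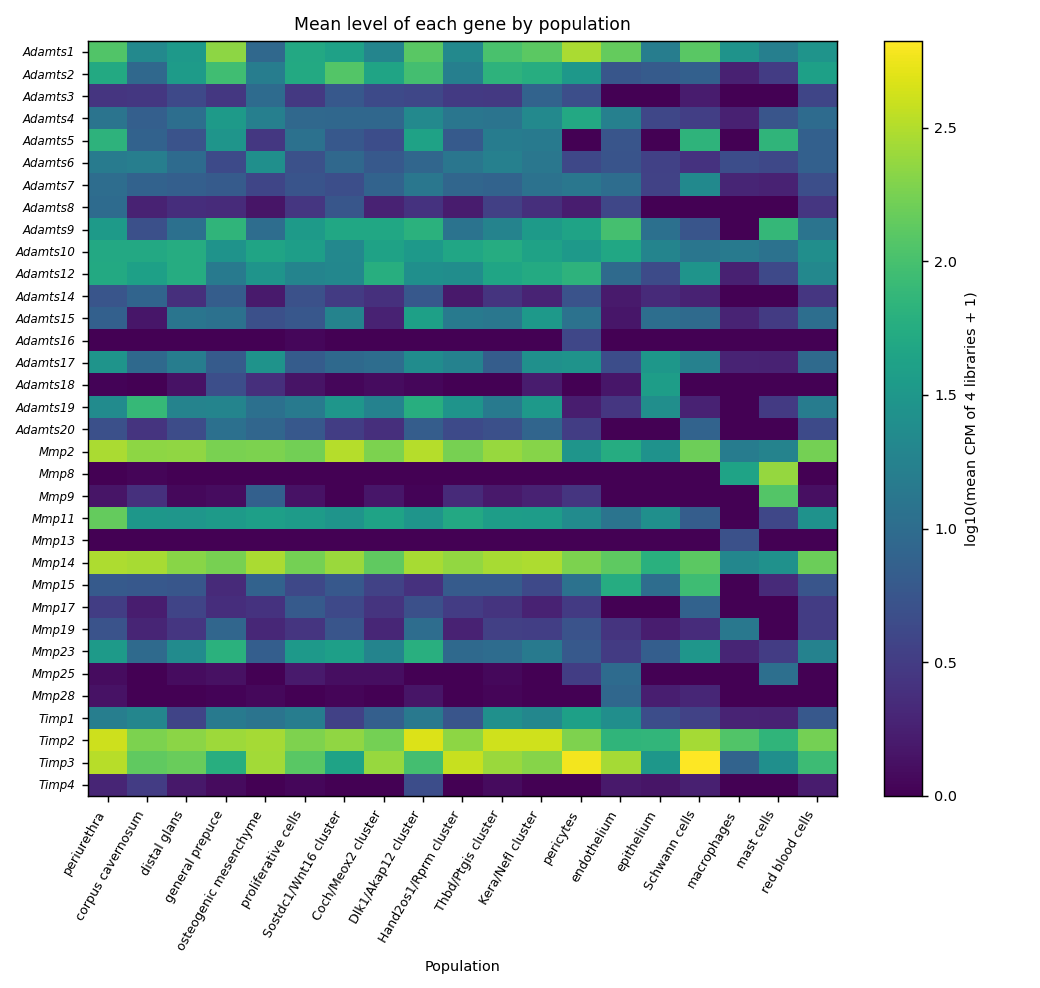
Mean CPM of the members (rows) in the 19 populations (columns) on a colour scale of log10(CPM + 1), averaged over 4 libraries. Timp2, Mmp14 and Mmp2 fill most columns, while Adamts18 stands out in epithelium, Mmp8 and Mmp9 in the mast cell cluster and Mmp11 in periurethra.

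The TIMPs differed in where their levels were highest. *Timp3* was highest in Schwann cells at 668 ± 124 CPM and in pericytes at 600.4 ± 109.7 CPM, and lowest in macrophages at 6.97 ± 4.16 CPM. The Schwann values were 596, 580.4, 647 and 849 CPM in DTA- 1, DTA- 2, DTA+ 1 and DTA+ 2 and overlapped those of pericytes. *Timp2* ran from 477 ± 35.3 CPM in the *Dlk1*/*Akap12* cluster, a mesenchymal cluster, down to 68.9 CPM in endothelium, and stayed at 113 ± 16.4 CPM in macrophages. *Timp1*, the inhibitor most often induced by injury and growth signals, was a low transcript with its top in pericytes at 39.2 ± 15.5 CPM. It was 0.849 CPM in mast cells. *Timp4*, the inhibitor known from heart and fat, had a mean of at most 3.70 CPM in any population.

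The enzymes of the cell surface and the gelatinase had broad mesenchymal ranges. *Mmp14* was 300.7 ± 47.5 CPM in periurethra and 19.1 ± 6.52 CPM in macrophages. *Mmp2* was 324 ± 140.5 CPM in the *Sostdc1*/*Wnt16* cluster, 319 ± 62.0 CPM in the *Dlk1*/*Akap12* cluster and 14.3 ± 5.99 CPM in macrophages. *Mmp15*, another membrane-type enzyme that was added to the named genes after its values were seen, had another pattern. It was 56.8, 99.0, 96.5 and 94.7 CPM in the Schwann cells of DTA- 1, DTA- 2, DTA+ 1 and DTA+ 2, a mean of 86.7 CPM, 54.7 ± 15.1 CPM in endothelium and 10.7 CPM in pericytes, the next population. Its values in Schwann cells and endothelium overlapped between libraries.

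The 7 proteoglycan-cutting ADAMTS genes were highest in different populations. *Adamts1*, which cuts versican, was 290.1 ± 130.8 CPM in pericytes, 222 ± 115.7 CPM in general prepuce and 144 ± 61.0 CPM in endothelium, with values that overlapped between the 3. *Adamts4*, an aggrecanase, was 50.3 ± 18.9 CPM in pericytes. *Adamts9*, which cuts versican and acts in palate closure, was 97.6 ± 30.9 CPM in endothelium, with 72.0, 121, 69.9 and 127 CPM in the 4 libraries. Endothelium overlapped the mast cell cluster (74.6 ± 44.6 CPM) and general prepuce (69.5 ± 5.91 CPM). *Adamts20*, a close relative of *Adamts9*, was sparse and reached 9.94 ± 6.88 CPM in general prepuce. *Adamts5*, the main aggrecanase of cartilage, was nearly equal in 3 populations, at 70.1 ± 43.6 CPM in the mast cell cluster, 67.4 ± 27.4 CPM in Schwann cells and 66.2 ± 18.4 CPM in periurethra. *Adamts15*, another aggrecanase, was highest in the *Dlk1*/*Akap12* cluster, with 46.2, 39.8, 32.0 and 37.8 CPM in the 4 libraries, and *Adamts8* in periurethra at 8.65 ± 4.48 CPM.

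*Adamts18* was highest in epithelium. It encodes a secreted ADAMTS with known roles in branching epithelia and the eye, and was 36.5 ± 14.0 CPM in epithelium and 3.75 ± 3.26 CPM in general prepuce, the next population, a ratio of 9.72. The epithelial values were 23.5, 30.7, 56.1 and 35.7 CPM, and none overlapped those of general prepuce. Most UMIs of *Adamts18* lay outside the kept cells, with 394 of 523 in cells that the filters removed.

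*Mmp8* and *Mmp9* marked a few cells within the mast cell cluster. *Mmp8* was 238 ± 285 CPM there, with 650.1, 179, 0 and 122 CPM in DTA- 1, DTA- 2, DTA+ 1 and DTA+ 2. *Mmp9*, gelatinase B, was 117 ± 115 CPM, with 279, 96.4, 6.79 and 85.6 CPM. The SD was about as large as the mean in both, and the order of libraries was the same for both genes. The cluster also carried *S100a8*, *S100a9* and *Stfa1* among its leading genes, which are abundant in neutrophils. Of its 268 cells, 26 had more UMIs of *S100a8* and *S100a9* than of mast cell genes, 12, 7, 2 and 5 of them in the 4 libraries. Those 26 cells held all 218 *Mmp8* UMIs and 106 of 108 *Mmp9* UMIs. The 154 cells with more UMIs of mast cell genes held 0 *Mmp8* and 2 *Mmp9* UMIs, but 70 of 70 *Adamts5* and 70 of 73 *Adamts9* UMIs. That split was made after the values were seen. Macrophages had *Mmp8* at 42.2 ± 32.3 CPM and *Mmp9* at 0 CPM in each library.

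*Mmp11*, stromelysin-3, an enzyme of stroma that borders epithelium, was the only member whose mean in a mesenchymal population was over 2 times that of the next. It was 144 ± 82.5 CPM in periurethra and 49.4 ± 14.8 CPM in the *Hand2os1*/*Rprm* cluster, and the ranges of their 4 libraries overlapped. *Adamts19*, whose substrates are little known, was highest in corpus cavernosum at 77.1 ± 49.3 CPM and in the *Dlk1*/*Akap12* cluster at 58.3 ± 36.7 CPM. *Adamts2*, the procollagen I N-propeptidase, led in the *Sostdc1*/*Wnt16* cluster at 116 ± 16.8 CPM. *Mmp23*, an MMP anchored in the membrane by its amino terminus, was 62.7 ± 5.95 CPM in general prepuce and 60.4 ± 15.5 CPM in the *Dlk1*/*Akap12* cluster. The wide SD of *Mmp11* and *Adamts19* lay mainly between the genotypes, which are compared next.

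The comparison of DTA+ with DTA- penises asks which of these genes differ in RNA when the *Nr5a1* lineage is ablated. Counts were summed per library and tested with edgeR's quasi-likelihood test, and a gene is called at an adjusted p (Benjamini-Hochberg, over all genes tested) under 0.05. Log2 fold changes are DTA+ over DTA-, with their standard error (SE). In all cells together, 0 of 31 members tested were called, where 0.344% of 15976 genes were. At an unadjusted p under 0.05 there were 10, against 2408 of the 15976 genes. DESeq2 called 4 members and edgeR's likelihood ratio test called 6. For both of these tests, here and below, the share over all genes is not given. The members' median log2 fold change was -0.08, against -0.00 over all genes.

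The mesenchyme, 18 clusters with 26482 cells, gave 3 called members of 29 tested, or 10.3%, against 1.74% of 15152 genes. *Adamts19* rose. It was 16.7 and 21.2 CPM in the DTA- libraries and 39.2 and 38.8 CPM in the DTA+ libraries, so the genotypes were far apart and the replicates close. Its log2 fold change was 0.97 (SE 0.15, adjusted p = 0.0292), and the call was kept in all 16 alternatives run. *Adamts8*, an ADAMTS with weak proteoglycanase activity, fell from 3.11 and 4.32 CPM to 1.29 and 1.33 CPM, a log2 fold change of -1.57 (SE 0.28, adjusted p = 0.0422). Without DTA- 2 the adjusted p was 0.0511. *Timp4* rose from 0.269 and 0.279 CPM to 1.53 and 1.13 CPM, with 7, 8, 39 and 33 UMIs behind these values. Only the DTA+ libraries met the filter on low counts, so *Timp4* was tested because of the group in which it was high. Its call, 1 of the 3, is no support by itself. The log2 fold change was 2.18 (SE 0.41, adjusted p = 0.0499). It was not called without DTA- 1 (0.0914), DTA- 2 (0.0620) or DTA+ 1 (0.120). When the *Tac1*/*Tfap2c* cluster of the distal glans, which fell just under the limit for mesenchyme, was added, 1 member was called. Smooth muscle markers moved with the genotype in this sum, at 256 and 383 CPM against 142 and 109 CPM, as did red blood cell markers, at 272 and 185 CPM against 141 and 53.6 CPM, and their part in these results was not tested.

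The abundant members did not pass the test in the mesenchyme. *Mmp2* was 207, 291, 233 and 226 CPM, with a log2 fold change of -0.19 (adjusted p = 0.594), and *Mmp14* was 241, 235, 265 and 239 CPM (0.01, adjusted p = 0.972). *Timp2* was 271, 303, 317 and 277 CPM (-0.02, adjusted p = 0.955), and *Timp3* was 156, 185, 158 and 169.8 CPM (-0.13, adjusted p = 0.637). For each of these genes the DTA- and DTA+ values overlapped. *Timp1* was 13.7 and 14.3 CPM in DTA- and 9.09 and 8.72 CPM in DTA+. Its log2 fold change of -0.73 had an adjusted p of 0.0644. *Adamts9* was 29.6, 49.5, 36.0 and 25.6 CPM (adjusted p = 0.445), *Adamts20* was 4.19, 6.37, 3.60 and 3.62 CPM (adjusted p = 0.266), and *Mmp9* was 1.15, 0.696, 0.352 and 0.957 CPM (adjusted p = 0.637).

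**Figure D3:**
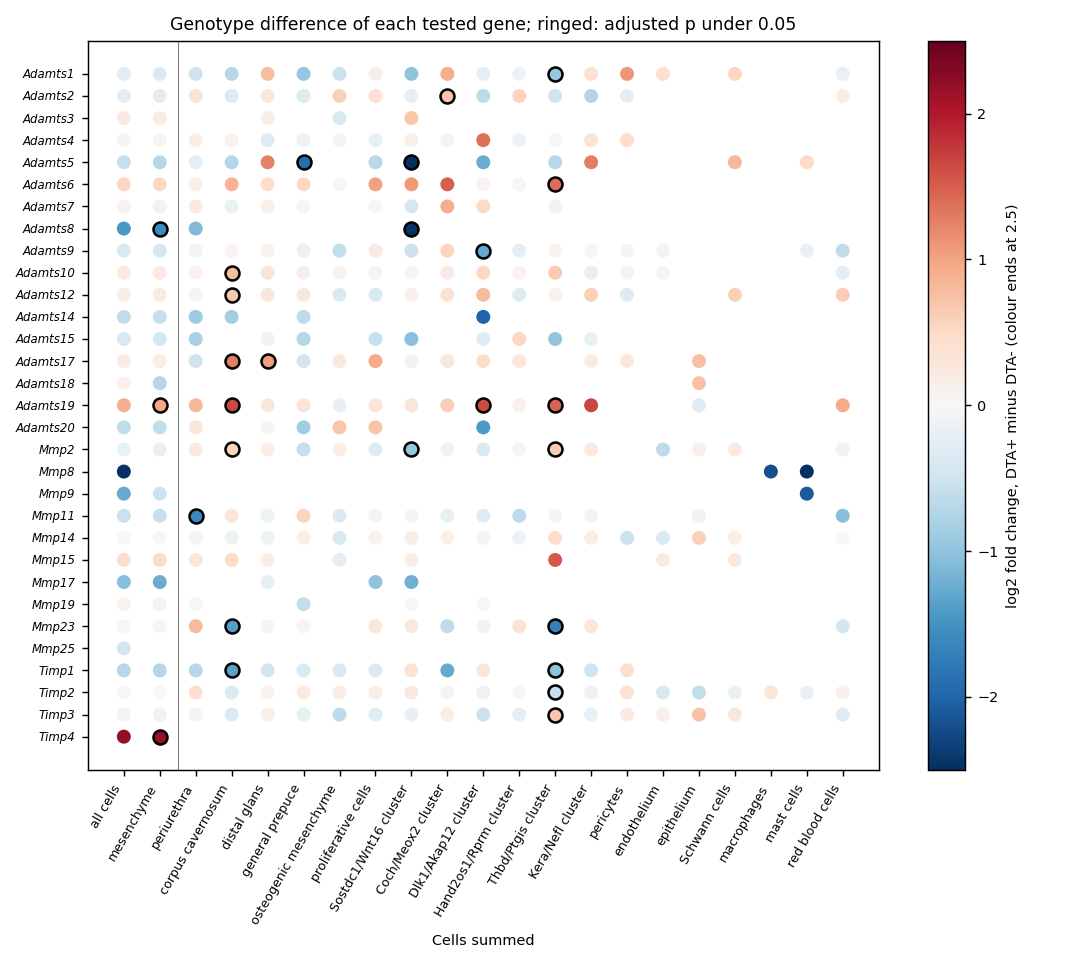
Log2 fold change (DTA+ over DTA-, colour) of the members tested (rows) in each population (columns), with calls at an adjusted p under 0.05 ringed. Adamts19 is called higher in corpus cavernosum, the Dlk1/Akap12 cluster and the Thbd/Ptgis cluster, and Timp1 is called lower in corpus cavernosum and the Thbd/Ptgis cluster. The 7 populations that the naming rules put wholly outside the mesenchyme hold no ring, and the ringed distal glans lies partly outside it.

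Called members lay in particular mesenchymal populations, counting distal glans, whose *Tac1*/*Tfap2c* cluster fell just under the limit for mesenchyme. Over the 13 named populations, fitted separately, 10 of 182 tests of members passed (5.49%), against 2.5% of all tests of genes there. Over 6 unnamed clusters 14 of 115 passed (12.2%), against 4.71%. Together that made 24 calls among 297 tests (8.08%), against 3.33% of all tests of genes, 12 higher and 12 lower in DTA+, for 16 of the 29 members tested in any population. Of those 16 members, 7 were called only higher, 8 only lower and *Mmp2* in both directions. The 24 calls include *Adamts5* and *Adamts8* in the *Sostdc1*/*Wnt16* cluster and *Mmp23* in the *Thbd*/*Ptgis* cluster. These met the filter on low counts only through the group in which they were high. Their calls are no support by themselves, and the shares above were not recomputed without them.

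Corpus cavernosum, the erectile body with a *Sox9*-positive core, held the most calls of any named population, 7 of 20 members tested (35%) against 8.7% of 11004 genes. DESeq2 called 3 members and the likelihood ratio test 8. *Adamts19* rose most, from 25.1 and 45.1 CPM to 115 and 123 CPM. Its log2 fold change was 1.64 (SE 0.22, adjusted p = 0.000133). It was called in all 16 alternatives. In the *Sox9*/*Ecrg4* cluster fitted by itself, which holds most corpus cavernosum cells and had 6 calls of 20 members (against 8.08% of genes), it was not called without DTA- 1 (0.346) or DTA- 2 (0.232). All 6 calls of that cluster were lost in both of these subsets, and those of *Mmp23*, *Mmp2*, *Adamts12* and *Adamts10* were lost without any 1 of the 4 libraries. The small *Col9a1*/*Col9a3* cluster had 0 calls among 6 members (against 0.0782% of genes).

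*Timp1* fell in corpus cavernosum, from 24.3 and 29.0 CPM to 13.2 and 9.58 CPM. Its log2 fold change was -1.33 (SE 0.26, adjusted p = 0.00397). The adjusted p without DTA+ 2 was 0.0625. *Mmp23* also fell, from 11.1 and 13.0 CPM to 6.23 and 3.69 CPM (log2 fold change -1.38, SE 0.36, adjusted p = 0.0221). Without DTA+ 2 it was not called (0.231).

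The remaining 4 calls in corpus cavernosum were rises in enzymes. *Mmp2* was 168 CPM in both DTA- libraries and 302 and 240.0 CPM in the DTA+ libraries (log2 fold change 0.58, SE 0.15, adjusted p = 0.0205). *Adamts10*, which binds fibrillin microfibrils, was 39.1 and 30.5 CPM against 57.9 and 68.9 CPM (0.76, adjusted p = 0.0205). *Adamts12*, an enzyme of cartilage and tendon that cuts COMP, was 27.6 and 30.5 CPM against 53.5 and 46.1 CPM (0.67, adjusted p = 0.0408). *Adamts17*, also linked to fibrillin, was 5.76 and 3.44 CPM against 14.3 and 9.58 CPM (1.27, adjusted p = 0.0426). Each of these 4 calls was lost without at least 1 library. *Mmp2* was not called without DTA+ 1 (0.454) or DTA+ 2 (0.0580), and *Adamts10* was not called without DTA+ 2 (0.264). *Adamts12* was not called without DTA- 1 (0.0716), DTA+ 1 (0.388) or DTA+ 2 (0.149), and *Adamts17* not without DTA- 2 (0.105), DTA+ 1 (0.470) or DTA+ 2 (0.0528). In corpus cavernosum the summed smooth muscle markers were 80.6 and 71.0 CPM in DTA- and 49.9 and 35.8 CPM in DTA+. The mast cell markers were 23.9 and 29.0 CPM against 11.7 and 7.74 CPM, and the red blood cell markers 278 and 119 CPM against 101 and 39.1 CPM, each with 1 gene called lower. Their part in these results was not tested.

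Periurethra, the mesenchyme around the urethral tube, had 1 call among 24 members tested (4.17%), against 3.78% of 11070 genes. That call was *Mmp11*. It was 215 and 212 CPM in the DTA- libraries and 94.2 and 53.0 CPM in the DTA+ libraries, a clear gap. Its log2 fold change was -1.62 (SE 0.22, adjusted p = 0.00196), and without DTA- 1 it was -1.60 with an adjusted p of 0.0569. *Timp1* was 18.0 and 19.5 CPM against 13.0 and 10.9 CPM (log2 fold change -0.71, adjusted p = 0.198) and was not called there in any of 16 alternatives. Pericyte markers moved with the genotype in periurethra, at 69.1 and 83.0 CPM in DTA- against 101 and 96.6 CPM in DTA+ with 1 gene of 5 tested called higher, and so did endothelial markers, at 14.7 and 9.98 CPM against 24.99 and 28.8 CPM with 0 of 3 called. Their part in the *Mmp11* result was not tested.

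The clusters that make up the periurethra were also fitted separately, in a comparison added after the data were seen, and *Mmp11* was called in 1 of the 2. In the *Sall3* cluster *Mmp11* was 419 and 390.5 CPM in DTA- and 111 and 73.8 CPM in DTA+. The log2 fold change was -2.17 (SE 0.21, adjusted p = 0.000286), and it was called without each library in turn, with a highest adjusted p of 0.00181. In the *Mup17*/*Epha3* cluster *Mmp11* was 39.2, 25.9, 61.9 and 31.4 CPM (log2 fold change 0.32, adjusted p = 0.727). The difference between the 2 clusters was not itself tested. The *Sall3* cluster had 283, 288, 338 and 445 cells in the 4 libraries. Since 11 of 20 leading genes of periurethra were called between the genotypes, a change within the same cells and a change in which cells join the cluster cannot be told apart.

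The *Sall3* cluster had 2 calls among 19 members (against 3.48% of genes), the other being *Adamts19*. *Adamts19* met the filter on low counts there only in the DTA+ libraries, the group in which it was high, so its call is no support by itself. It was 3.60 and 7.12 CPM in DTA- and 24.3 and 20.8 CPM in DTA+ (log2 fold change 2.07, SE 0.42, adjusted p = 0.0224), and it was not called without DTA- 1 (0.172). The *Mup17*/*Epha3* cluster had 1 call among 17 (against 3.63%), *Mmp2* at 168 and 212 CPM against 311 and 307 CPM (0.67, adjusted p = 0.0378). That call was lost without DTA- 1 (0.450), DTA- 2 (0.0635) or DTA+ 2 (0.0664).

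Distal glans and general prepuce had 1 call each. In distal glans, 1 of 23 members (4.35%) was called, against 4.82% of genes. *Adamts17* rose there from 9.20 and 9.95 CPM to 19.0 and 21.4 CPM (log2 fold change 1.05, SE 0.23, adjusted p = 0.0157), and without DTA+ 2 its adjusted p was 0.0629. Of the clusters that make up the distal glans, each fitted by itself after the data were seen, the *Msx2*/*Inhba* cluster had 0 calls among 18 members (against 1.22% of genes) and the *Tac1*/*Tfap2c* cluster 1 among 14 (against 7.21%). That call was again *Adamts17*, at 8.10 and 8.49 CPM in DTA- and 19.2 and 19.8 CPM in DTA+ (log2 fold change 1.19, adjusted p = 0.0270), and it was not called without DTA- 1 (0.130) or DTA+ 2 (0.225). In general prepuce, 1 of 22 members (4.55%) was called, against 0.802% of genes. *Adamts5* was 27.0 and 65.0 CPM in DTA- and 17.0 and 6.52 CPM in DTA+ (log2 fold change -1.91, SE 0.39, adjusted p = 0.0265). The spread within each genotype was wide, and without DTA- 2 the log2 fold change was -1.09 with an adjusted p of 0.354.

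**Figure D4:**
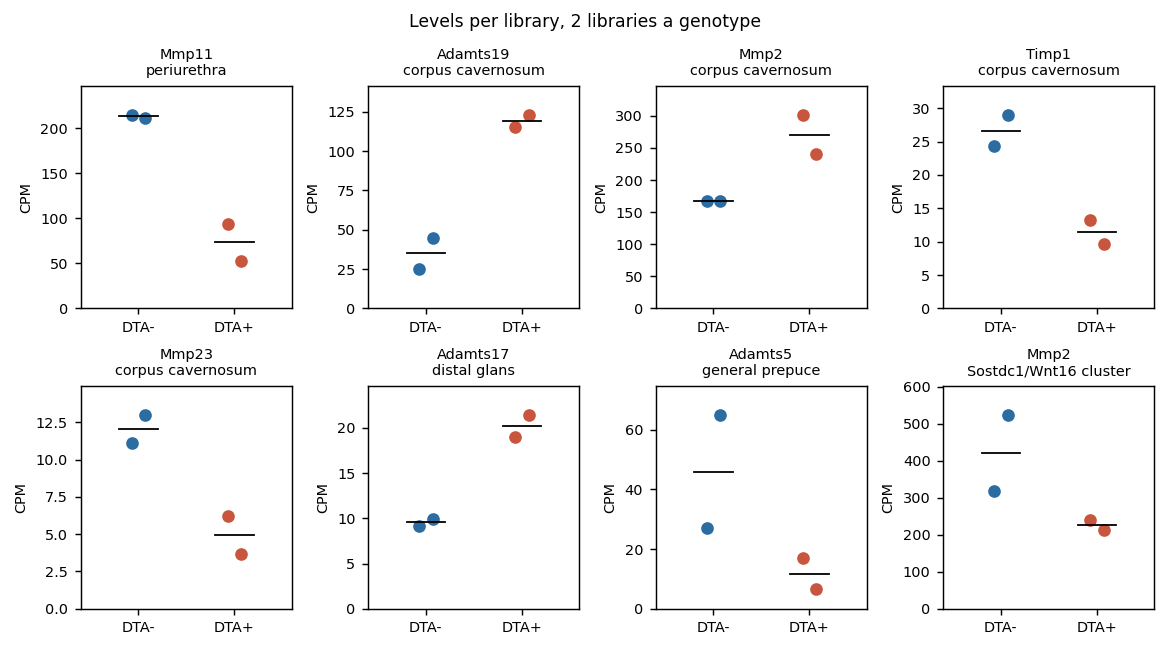
CPM of called members in each of the 4 libraries, in the population named above each panel, with 1 point per library and a bar at the group mean. In corpus cavernosum Adamts19 lies at 115 and 123 CPM in DTA+ above 25.1 and 45.1 CPM in DTA-, and in periurethra Mmp11 lies at 94.2 and 53.0 CPM below 215 and 212 CPM.

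Osteogenic mesenchyme and the proliferative cells had 0 calls among 39 tests of members by the quasi-likelihood test (backgrounds 3.56% and 0.383% of genes). Of these tests 4 had an unadjusted p under 0.05, against 1577 of 9489 genes in osteogenic mesenchyme and 942 of 10708 in proliferative cells. DESeq2 called 0 members and the likelihood ratio test 1. In the *Hist1h1b*/*Cenpf* cluster of proliferative cells, fitted by itself after the data were seen, 1 of 15 members was called (against 0.443% of genes), and in the *Top2a*/*Hist1h2ae* cluster 0 of 15 (against 0.721%). *Adamts5* was 24.4 and 34.9 CPM in DTA- and 4.08 and 3.46 CPM in DTA+ in the former (log2 fold change -2.99, adjusted p = 0.0125), and it was not called without DTA- 2 (0.289). The 7 populations that the naming rules put wholly outside the mesenchyme had 0 calls among 54 tests, against 0.0885% of tests of genes. Of these tests 12 were in the red blood cell cluster, which also held mesenchymal RNA. The share of genes called was 0 in epithelium, macrophages and mast cells, 0.0174% in endothelium, 0.105% in Schwann cells, 0.162% in pericytes and 0.272% in red blood cells. There 4 tests of members had an unadjusted p under 0.05. Over all genes this ran from 170 of 4052 in macrophages to 539 of 5879 in red blood cells. DESeq2 called 0 members and the likelihood ratio test 2. These populations were small, with 208 to 552 cells in all 4 libraries, so only large differences could be detected. *Adamts1* in pericytes was 164 and 196 CPM in DTA- and 433 and 368 CPM in DTA+. Its log2 fold change was 1.10 (SE 0.25, adjusted p = 0.120), and DTA- 1 held only 21 pericytes. The 8 immediate-early genes summed there to 4240 and 10898 CPM in DTA- and 15487 and 11599 CPM in DTA+. That was the same order of libraries, and the part of these genes was not tested. *Adamts18* in epithelium had a log2 fold change of 0.74 (SE 0.43, adjusted p = 0.958).

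Among the unnamed clusters, the *Thbd*/*Ptgis* cluster had the most calls, 8 of 19 members tested (42.1%) against 12.5% of 9943 genes. DESeq2 called 3 members there and the likelihood ratio test 10. Rises and falls were equal in number. *Timp3* rose from 164 and 214 CPM to 290.3 and 344 CPM (log2 fold change 0.71, adjusted p = 0.00668). *Timp1* fell from 33.6 and 33.7 CPM to 18.4 and 15.8 CPM (-1.02, adjusted p = 0.0136), and *Timp2* from 424 and 562 CPM to 373 and 299 CPM (-0.59, adjusted p = 0.0176). The inhibitors thus moved in both directions within this cluster. In each case the groups did not overlap, which adds little with 2 against 2 libraries. *Mmp14*, for example, did not overlap in 8 of 17 populations and had 0 calls.

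The enzymes of the *Thbd*/*Ptgis* cluster divided as well. *Mmp2* rose from 176 and 201 CPM to 323 and 279.5 CPM (log2 fold change 0.63, adjusted p = 0.00928). *Adamts6*, an enzyme that acts on fibrillin and cell adhesions, rose from 5.96 and 11.6 CPM to 23.2 and 22.8 CPM (1.4, adjusted p = 0.0113), and *Adamts19* from 4.26 and 9.87 CPM to 24.8 and 13.9 CPM (1.45, adjusted p = 0.0246). *Mmp23* fell from 13.2 and 13.9 CPM to 4.0 and 4.44 CPM (-1.69, adjusted p = 0.0113), and *Adamts1* from 89.0 and 179.9 CPM to 64.8 and 76.1 CPM (-0.95, adjusted p = 0.0155). The genotypes did not overlap for these enzymes either, with the same limit. *Mmp23* met the filter on low counts only in the DTA- libraries, the group in which it was high, so its call is no support by itself. Each of the 8 calls in the cluster was lost without at least 1 library. Without DTA+ 2, *Timp1* (0.133), *Timp2* (0.199), *Timp3* (0.116) and *Mmp23* (0.0646) were not called. Without DTA+ 1, *Mmp2* (0.172), *Adamts1* (0.0502), *Adamts19* (0.317) and *Mmp23* (0.0800) were not called. Without DTA- 1, *Adamts6* (0.0783) and *Adamts19* (0.152) were not called, and without DTA- 2, *Adamts1* (0.156) and *Timp2* (0.0938). Smooth muscle markers in this cluster were 111 and 132 CPM in DTA- and 32.8 and 27.3 CPM in DTA+, with 2 genes called lower. Red blood cell markers were 204 and 163 CPM against 134 and 39.3 CPM, with 1 called lower, and pericyte markers 51.1 and 56.9 CPM against 70.4 and 59.6 CPM, with 2 called higher. Their part in these results was not tested.

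Calls in other unnamed clusters were fewer. In the *Sostdc1*/*Wnt16* cluster 3 of 24 members (12.5%) were called, all lower, against 2.57% of genes. *Adamts5* fell from 5.57 and 12.5 CPM to 1.4 and 0.643 CPM (log2 fold change -3.21, SE 0.58, adjusted p = 0.00611). It was called in all 13 alternatives in which it was tested in this cluster. Only the DTA- libraries met the filter on low counts for *Adamts5* and for *Adamts8*. These genes were thus tested because of the group in which they were high, and their calls are no support by themselves. *Adamts8* fell from 5.57 and 10.4 CPM to 0.699 and 2.25 CPM (-2.46, adjusted p = 0.0221), and *Mmp2* from 318 and 523 CPM to 239 and 214 CPM (-0.95, adjusted p = 0.0202). Both were lost in a smaller set, *Adamts8* without DTA- 2 (0.105) or DTA+ 1 (0.113) and *Mmp2* without DTA+ 2 (0.139). In the *Dlk1*/*Akap12* cluster 2 of 22 members (9.09%) were called, against 4.19% of genes. *Adamts9* fell from 80.7 and 95.9 CPM to 32.7 and 41.1 CPM (-1.29, SE 0.22, adjusted p = 0.00378) and was not called without DTA+ 1 (0.0641). *Adamts19* rose there from 31.6 and 25.4 CPM to 72.7 and 103 CPM (1.64, SE 0.23, adjusted p = 0.00118). The call was kept in all 11 alternatives that held this cluster, but the other clusterings run gave no cluster of that name. It had 326, 897, 327 and 346 cells in the 4 libraries. Of its 10 leading genes 4 were called between the genotypes, as in the *Sostdc1*/*Wnt16* cluster. The part of a change in which cells join these clusters was not tested.

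In the *Coch*/*Meox2* cluster 1 of 17 members (5.88%) was called, against 7.19% of genes. *Adamts2* rose from 33.3 and 33.5 CPM to 54.3 and 54.8 CPM (log2 fold change 0.69, adjusted p = 0.0486) and was lost without DTA- 1 (0.0780), DTA+ 1 (0.271) or DTA+ 2 (0.176). The *Hand2os1*/*Rprm* cluster had 0 calls of 16 members (background 0.364%) by the quasi-likelihood test, 0 by DESeq2 and 0 by the likelihood ratio test. At an unadjusted p under 0.05 it had 1 member, against 1025 of 9622 genes. The *Kera*/*Nefl* cluster had 0 of 17 (background 0.791%), 0 by DESeq2 and 1 by the likelihood ratio test. At an unadjusted p under 0.05 it had 4 members, against 672 of 8222 genes.

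Seen by gene, *Adamts19* was tested in 14 populations, had a higher point estimate in DTA+ in 12 of them and was called in 3. *Adamts6* had a higher point estimate in 11 of 11 populations and was called in 1. *Timp1* was lower in 9 of 12 and called lower in 2. *Mmp2* was called higher in 2 and lower in 1 of 16 populations. The populations of a library share its animals and its preparation, so these counts are not independent of each other.

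Whether the genotype difference of a gene is unequal between sites was tested across periurethra, corpus cavernosum, distal glans and general prepuce in a single edgeR model with the library as a block. Of 25 members tested 8 were called (32%), against 5.16% of 12444 genes. *Mmp11* was the clearest (adjusted p = 0.000106). Its log2 fold changes were -1.62 (SE 0.22) in periurethra, 0.32 (SE 0.21) in corpus cavernosum, -0.14 (SE 0.21) in distal glans and 0.59 (SE 0.24) in general prepuce. It was called in all 17 settings run, and without each library the adjusted p was at most 0.0401.

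*Adamts19* (adjusted p = 0.00482) differed in size but not in sign, with log2 fold changes of 0.83, 1.64, 0.31 and 0.34 in the same order of sites. *Mmp2* (adjusted p = 0.00542) was 0.25, 0.58, 0.18 and -0.60. *Adamts5* (adjusted p = 0.00935) was -0.24, -0.74, 1.24 and -1.91, and *Adamts17* (adjusted p = 0.0223) was -0.53, 1.27, 1.05 and -0.48. *Adamts1* (adjusted p = 0.0297) was -0.51, -0.72, 0.76 and -0.95. *Timp2* (adjusted p = 0.0354) was 0.42, -0.37, 0.10 and 0.23, and *Mmp23* (adjusted p = 0.0480) was 0.80, -1.38, 0.04 and 0.07. Of these, the corpus cavernosum stood highest for *Adamts19*, *Mmp2* and *Adamts17* and lowest for *Timp2* and *Mmp23*. Some rises rested on DTA+ 1. In DTA- 1, DTA- 2, DTA+ 1 and DTA+ 2, *Adamts5* in distal glans was 1.38, 3.44, 10.2 and 2.22 CPM. *Adamts1* there was 18.4, 27.2, 55.5 and 26.0 CPM. In periurethra *Timp2* was 311, 371, 577 and 370 CPM and *Mmp23* 21.4, 25.9, 60.9 and 26.6 CPM. For each of these, DTA+ 2 lay within or next to the DTA- values. Leaving out DTA- 1 kept only *Mmp11* (0.0102) and *Mmp2* (0.0314), and leaving out DTA- 2 kept only *Mmp11* (0.0401). Without DTA+ 1 the call of *Timp2* (0.0703) was lost, and without DTA+ 2 that of *Adamts17* (0.0674). The other 7 of the 8 were called in each case.

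**Figure D5:**
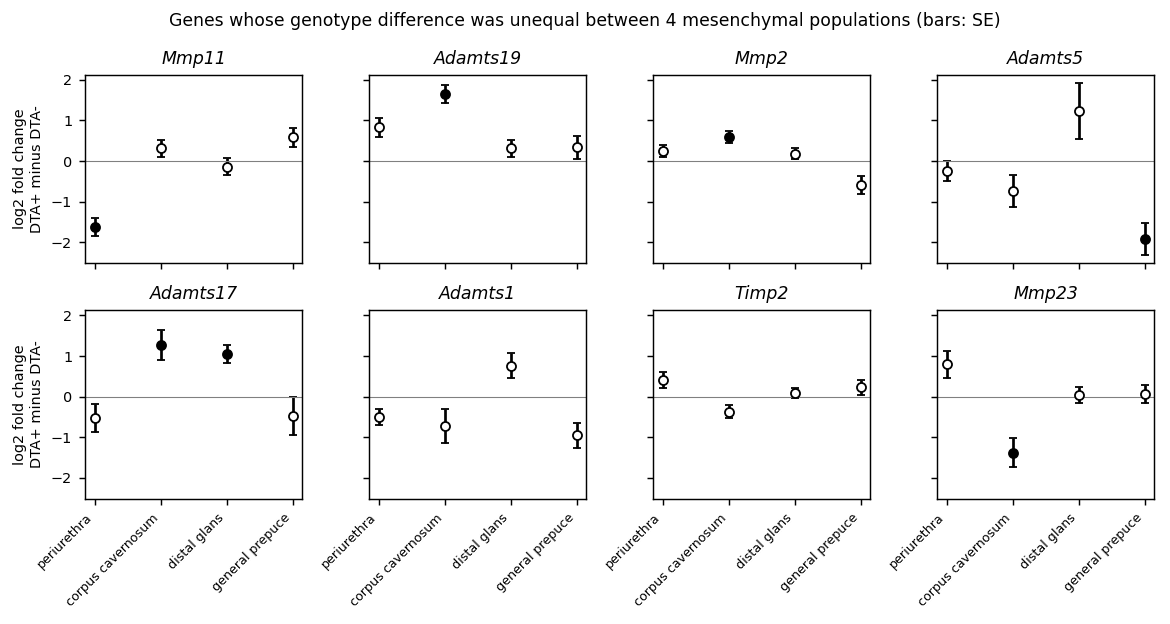
Log2 fold change (DTA+ over DTA-) with its SE for the 8 members whose genotype difference was unequal between periurethra, corpus cavernosum, distal glans and general prepuce, with filled points for calls at an adjusted p under 0.05 in that population. Mmp11 lies at -1.62 in periurethra and between -0.14 and 0.59 in the other 3 sites, and Adamts19 is highest in corpus cavernosum at 1.64.

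*Adamts1* needs the immediate-early genes beside it, because DTA- 1 and DTA- 2 disagreed on both. In general prepuce *Adamts1* was 199.7 and 379.7 CPM in DTA- and 209 and 101 CPM in DTA+, so the genotypes overlapped. The 8 immediate-early genes there summed to 11297, 18182, 17258 and 12380 CPM. In all cells *Adamts1* was 52.6, 115, 82.9 and 61.6 CPM, and DTA- 1 was lowest on both measures. The part of these genes in the *Adamts1* result was not tested.

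Substrates, activators, ADAMTS-like proteins and other regulators were counted from a list of 46 genes. In all cells 0 of 44 tested were called by the quasi-likelihood test, and in the mesenchyme 0 of 42. In corpus cavernosum 6 rose and 5 fell of 33 tested, where 8.7% of all genes were called. *Adamtsl1* and *Adamtsl3*, ADAMTS-like proteins without a protease domain, rose with log2 fold changes of 0.89 and 2.23. *Pcsk6*, a proprotein convertase, and *Lrp1*, the receptor that clears several of these proteases, rose by 0.72 and 0.55. *Tll2*, a tolloid-like metalloprotease, and *Dcn* (decorin) rose by 2.00 and 0.58. *Vcan* (versican), the main proteoglycan substrate of *Adamts1*, *Adamts5* and *Adamts9*, and *Hapln1*, its link protein, had log2 fold changes of -0.50 and -1.93. *Thsd4* had -0.75 and *Bsg*, an inducer of MMPs, -0.47.

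In the *Thbd*/*Ptgis* cluster 12 of 33 fell and 1 rose, where 12.5% of all genes were called. The falls included *Vcan* (log2 fold change -1.50), *Fn1* (-0.90), and the fibrillar collagens *Col1a1* (-0.57), *Col1a2* (-0.68) and *Col3a1* (-0.76), beside *Fbn1*, *Fbn2*, *Fbln1*, *Serpine2*, *Thsd4* and *Bsg* at -0.49 to -1.97, while *Adamtsl1* rose by 0.57. In periurethra, of 37 tested and against 3.78% of all genes, *Vcan* fell (-0.81) while *Dcn* (2.09) and *Adam33* (1.45) rose. *Vcan* was 318 and 445 CPM in the DTA- periurethra and 238 and 212 CPM in the DTA+ periurethra. General prepuce had 0 of 33 called, against 0.802% of all genes.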

How the data were processed

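UMI counts per gene and cell were used as the authors deposited them, without normalization, for cells called by Cell Ranger (version 4.0.0 and build mm10 per the submitters' processing notes; the study's methods name version 3, with a *tdTomato* sequence added to the genome). The libraries came from a 3′ kit of 10x Genomics, and were pooled on a single flow cell. A cell entered the work with more than 1000 and fewer than 7500 UMIs, if its mitochondrial and Hba shares did not exceed 25% and its Hbb share 50%. Clusters came from Seurat 5.3.0 under R 4.3.3 (2000 variable genes without the members, 30 principal components, resolution 0.8). A cluster was named when at least 3 markers of a class were found in 5% or more of its cells and 0.8 or more higher in log2 CPM after adding 10 CPM, with a marker among its 25 leading genes and no other class ahead among the leading 10. Mesenchyme was every other cluster with a *Pdgfra* UMI in at least 20% of its cells. Doublets were left in, and Scrublet's automatic limit called 2 cells in all.

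Counts were summed per library and population with at least 20 cells in each library. They were tested with edgeR 4.0.16 (filterByExpr, TMM, quasi-likelihood F test, two-sided), with Benjamini-Hochberg adjustment over all genes tested. DESeq2 1.42.0, the likelihood ratio test that the study names, other filters, depths, clusterings, pairings and subsets of libraries were the alternatives. The test was checked on simulated counts. In 2 against 2 libraries an exact permutation test of a single gene cannot go below p = 0.333, so no such test is given. The labels call the libraries replicates and do not say which animals they hold. P-values therefore measure only the spread between these libraries.

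Members named with values were those called in any comparison, those with a mean of at least 20 CPM in a population and at least 2 times the next, and *Timp1* to *Timp4*, *Adamts9*, *Adamts20*, *Mmp2*, *Mmp9* and *Mmp14*. Of the 44 members, 31 passed the filter on low counts in all cells and 29 in at least 1 population. A gene could pass that filter through 1 genotype alone, as *Timp4* did in the mesenchyme and *Adamts5* in the *Hist1h1b*/*Cenpf* cluster. Calls of such genes are no support by themselves. The members and the gene lists were chosen with earlier results of these data known. Promoters were RefSeq's for GRCm38.p6, and gene positions those of GENCODE for GRCm38. No protein sequences were used here. Values of some genes are not reported here.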

Additional observations from a re-analysis of the deposited data

Results flagged for a closer look

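For 8 members the genotype difference was unequal between periurethra, corpus cavernosum, distal glans and general prepuce, by edgeR's quasi-likelihood test of that difference. The adjusted p-values were 0.000106 for *Mmp11*, 0.00482 for *Adamts19*, 0.00542 for *Mmp2*, 0.00935 for *Adamts5*, 0.0223 for *Adamts17*, 0.0297 for *Adamts1*, 0.0354 for *Timp2* and 0.0480 for *Mmp23*.

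The *tdTomato* reporter, which is no member and enters no comparison, had 3579 UMIs in DTA+ 1 and 3140 in DTA+ 2 against 0 in both DTA- libraries.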

How the results depend on the processing

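The 4 counts of called members (all cells 0, mesenchyme 3, named populations 10, unequal between sites 8) depended on the test and on the libraries. In all cells DESeq2 called 4, the likelihood ratio test 6, no filter on low counts 6, and cells thinned to 1000 UMIs 1. In the mesenchyme the likelihood ratio test called 5 and no filter 7. It was 1 with no upper UMI limit, after thinning, at resolution 0.4, with genes called between genotypes left out of clustering, and with the *Tac1*/*Tfap2c* cluster added. In the named populations DESeq2 called 4, no filter 18, no upper UMI limit 21 and thinning 5. Adding the unnamed clusters gave 24. Unequal effects between sites fell to 5 at resolution 0.4, 2 at resolution 1.2, 2 with the members used in clustering and 4 after thinning. Leaving out 1 library gave 1 in all cells, 2 to 3 in the mesenchyme, 10 to 13 in named populations and 1 to 8 for unequal effects. The cause of these moves was not tested. Shares over all genes are not set beside these counts, so they show only how the members' calls moved with the setting. The number of members at 20 CPM in a named population was 21 to 23 in all settings, against 22.

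With the replicate number as a block, the counts were 4 in all cells, 4 in the mesenchyme, 13 in named populations and 5 for unequal effects. Libraries of the same number deviated in opposite directions (r = -0.33 across 15976 genes, which are not independent), so the block shares only a number. With the crossed pairing, added after the data were seen, the counts were 8, 10, 17 and 9. For these block and crossed counts, too, no share over all genes is given.

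Of the values for single members, 516 kept their direction and their side of the threshold, 88 lost the call, 10 gained it and 17 changed sign. All 17 belonged to members that were not called. In all cells, on the log2 scale, leaving out 1 library gave *Mmp14* -0.084 to 0.073 (0.0054 without DTA- 1 and 0.073 without DTA+ 2), *Timp2* -0.12 to 0.071 (0.068 without DTA- 2 and 0.071 without DTA+ 2), *Timp3* -0.23 to 0.076, *Adamts9* -0.75 to 0.039 and *Mmp2* -0.42 to 0.054, the last 3 above 0 without DTA- 2. *Mmp14* was 0.0060 without the highest doublet scores and 0.019 after thinning. In the mesenchyme leaving out 1 library gave *Mmp14* -0.075 to 0.090 (-0.015 without DTA- 2 and -0.075 without DTA+ 1), *Mmp2* -0.41 to 0.069 (the latter without DTA- 2) and *Timp2* -0.13 to 0.081 (0.055 without DTA- 2 and 0.081 without DTA+ 2). *Mmp14* was -0.0033 with no filter, and *Timp2* was 0.021 with no upper UMI limit and 0.00017 with genotype genes left out of clustering.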

Other observations

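Of all UMIs of the libraries 44.4% lay in cells that the filters removed, and 9 members had over 50% of theirs there. *Adamts18* had 75.3% of its UMIs there and Mmp25 69.8%, with 113 of 162 UMIs. *Mmp12* had 18 of 19 UMIs outside the kept cells, *Mmp13* 19 of 25 and Mmp28 56 of 87. Among members described above, *Mmp15* had 943 of 1668 there (56.5%) and *Timp4* 112 of 205 (54.6%). These members were singled out after their values were seen.

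Mmp28 (epilysin), a member too sparse to be named by level, was 10.0, 7.28, 10.9 and 2.49 CPM in the endothelium of the 4 libraries, a mean of 7.67 CPM. Its next population was Schwann cells at 1.01 CPM. All kept cells together held 31 Mmp28 UMIs, with 9, 7, 11 and 4 in the 4 libraries, so these levels rest on few molecules. Mmp28 was also chosen after its values were seen.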
